A study of Oryza sativa with 6 samples.

Results

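The MATE family (multidrug and toxic compound extrusion) was followed in rice embryos of NIL-D and NIL-X. Members were taken from the annotation in the deposited table, as every gene with a MatE domain of the Pfam database, which gave 56 genes of 61955. Single genes were not picked by their values, but the family was taken up because OsZS_07G0323800 was already known to differ between the lines. The values of that gene between the lines are therefore given as a description, without a test. Judged by the Swiss-Prot hit alone, the label holds for 55 members, whose hit is an Arabidopsis protein DETOXIFICATION (DTX). The remaining one, OsZS_08G0193400, has its Swiss-Prot hit in a wheat zinc finger protein and carries zinc finger domains beside the MatE domain.

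MATE proteins are membrane antiporters that move organic compounds or ions out of the cytoplasm, across the plasma membrane or into the vacuole, in exchange for protons or sodium ions. In plants they carry secondary metabolites such as flavonoids and alkaloids, organic acids such as citrate, hormones and xenobiotics. In seeds they are best known from the Arabidopsis seed coat, where DTX41 (TRANSPARENT TESTA 12) loads precursors of proanthocyanidins into the vacuole.

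RNA was measured in embryos at day 15 post flowering, with 3 samples per line. NIL-D carries the giant embryo allele of the cultivar Dapeimi, a frameshift in GE, a gene for a cytochrome P450 of the CYP78 family. Its sample titles read GED, and its genotype field reads CMP-/-, a label that the paper does not use. NIL-X is labelled wild type and carries the homologous segment of the other parent, which has normal embryos. Both lines were derived by selfing from 1 cross and are 1 line each, so the GE allele and any other segment in which they still differ cannot be told apart. Samples are embryos collected from many plants in field plots, and bulk RNA does not tell fewer cells of a type from less RNA per cell.

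Expression is given in TPM, a transcript abundance that is corrected for gene length and brought to an equal sum in each sample, so levels of different genes can be set side by side. The files hold no read counts, and the depth behind a value is unknown. Values of 3 samples are always listed in the order of replicates 1 to 3. The gene numbered as GE, OsZS_07G0416900, had 0.1, 0.13 and 0.14 TPM in NIL-D and 0.09, 0.04 and 0.68 TPM in NIL-X. Its annotation is a cytosolic sulfotransferase and not a cytochrome P450, so it gives no check of the labels. Pearson's r across the 21500 tested genes, on log2(TPM + 1), was 0.961 to 0.975 within a line except for NIL-D replicate 3. That sample had r values of 0.921 and 0.933 with the other NIL-D samples, in the range of or below the values of 0.922 to 0.947 between the lines. Oleosins, the oil body proteins of embryo and aleurone, were above 0 in 5 of 6 genes and summed to 33996 to 37369 TPM in NIL-D and 33720 to 36596 TPM in NIL-X. Storage proteins of the endosperm were also present. All 20 glutelin genes were above 0, with sums of 34777 to 38915 TPM in NIL-D and 35473 to 41447 TPM in NIL-X. Prolamins (16 of 17 genes above 0) summed to 3053 to 6998 TPM in NIL-D and to 4939 to 12900 TPM in NIL-X, and granule-bound starch synthase 1 (2 of 3 genes above 0) to 224 to 332 TPM and 256 to 464 TPM. The sums of both lines overlapped in each list. Gene by gene, the median log2 fold change (NIL-D minus NIL-X) was -0.69 over 17 tested glutelins, -0.33 over 15 tested prolamins and -0.67 over 2 genes of granule-bound starch synthase 1, against -0.15 over all tested genes. All values of NIL-X lay above those of NIL-D in 5 tested glutelins (19.7% of all tested genes) and in 0 the reverse (4.53%). These counts were 3 and 1 in prolamins, 1 and 0 in granule-bound starch synthase 1, and 0 and 1 in the 5 tested oleosins. None of these genes was called by limma. An unadjusted limma p below 0.05 was found in 8 glutelins, 4 prolamins, 1 gene of granule-bound starch synthase 1 and 1 oleosin (15.6% of all tested genes). The part of these lists in the results below was not tested.

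Lines were compared with limma, and a gene was called differentially expressed (DEG) where the p-value after Benjamini-Hochberg adjustment was below 0.05 and the log2 fold change reached 1 in either direction. Of the 56 members, 50 had a TPM above 0 in at least 1 sample and 42 in all 6 samples. A mean of at least 0.5 TPM, the minimum for testing, was reached by 36 members, of which 22 had a mean of at least 5 TPM and 12 of at least 10 TPM. The 14 members between 0 and that minimum had no single value above 0.77 TPM. The remaining 6 members were listed at 0 in all samples. Of these, OsZS_10G0308900 and OsZS_12G0054000 are only 366 and 354 bp long, while the median length of all members is 1950 bp. By their names, the members lie on all chromosomes, with 9 each on chromosomes 3 and 10, 7 on chromosome 12 and 1 on chromosome 5, and 2 are new genes of the authors' assembly. A protein hit of 20 members matched a RefSeq gene of japonica rice, in each case on the chromosome given by the member's name. Neither the table nor the reference used here holds sequences, so none is shown.

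The summed level of the family overlapped between the lines. The sum over the 56 members was 569.7, 619.3 and 643.8 TPM in NIL-D and 563.7, 559.9 and 630.2 TPM in NIL-X. The means were 611 ± 37.8 (NIL-D) and 585 ± 39.5 TPM (NIL-X, each SD with n = 3). Without OsZS_07G0323800 the NIL-D mean was 609 ± 36.3 TPM against 522 ± 33.5 TPM for NIL-X, and the lowest NIL-D value, 569.1 TPM, lay above the highest NIL-X value, 557.7 TPM. Median-ratio scaling divided the NIL-D samples by 0.9768, 0.9989 and 0.8678 and the NIL-X samples by 1.103, 1.059 and 1.054. It raises every NIL-D sum relative to NIL-X, so it could only widen this gap and is no check of it. With OsZS_05G0441300 also left out, the sums were 338.5, 332.3 and 289.3 TPM in NIL-D and 291.7, 303.1 and 280.9 TPM in NIL-X. These sums overlapped as deposited. They did not under median-ratio scaling, a shift in the direction of its factors.

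**Figure D1:**
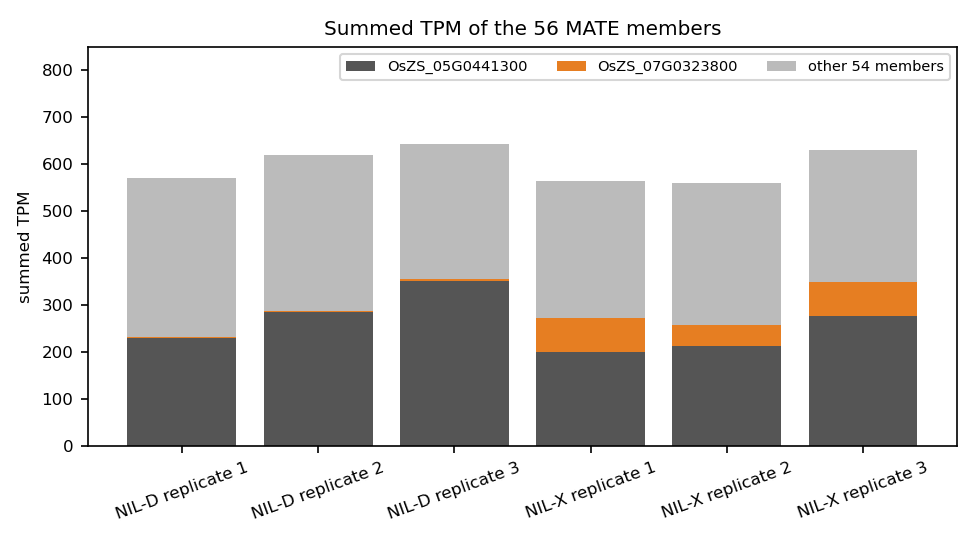
Summed TPM of the 56 MATE members in each sample (bars, from 0), divided into OsZS_05G0441300, OsZS_07G0323800 and the other 54 members. OsZS_07G0323800 makes up 8.0% to 12.8% of the sum in the NIL-X samples and 0.1% to 0.62% in the NIL-D samples.

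A single member, OsZS_05G0441300, held between 35.5% and 54.4% of the family's TPM. Its Swiss-Prot hit is DTX14, an Arabidopsis MATE transporter whose crystal structure is known, and its RefSeq match is LOC9269996. It had 230.6, 286.1 and 350.41 TPM in NIL-D and 199.92, 211.98 and 276.81 TPM in NIL-X. Both lines overlapped, and the log2 fold change (NIL-D minus NIL-X, on log2(TPM + 1), as throughout) was 0.32 (SE 0.21, limma adjusted p = 0.477). Its lowest value lay above the highest value of every other member, the next of which was 81.75 TPM.

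From the next member downward the order of levels was resolved only in part. OsZS_10G0191700 followed with a mean of 57.0 TPM over all samples, then OsZS_01G0460500 (33.5), OsZS_07G0323800 (32.5), OsZS_09G0343300 (27.7) and OsZS_03G0359500 (16.4). Within each neighboring pair of these, the 6 values of one gene overlapped those of the other. Compared within each sample, OsZS_10G0191700 lay above OsZS_01G0460500 throughout, and OsZS_09G0343300 above OsZS_03G0359500. OsZS_07G0323800 lay above OsZS_01G0460500 in each NIL-X sample and below it in each NIL-D sample. OsZS_01G0460500 is a DTX10 hit by Swiss-Prot, whereas its best protein hit in the annotation is named DETOXIFICATION 12. It had 30.32, 35.24 and 41.11 TPM in NIL-D and 32.39, 32.92 and 29.1 TPM in NIL-X. Its lines overlapped (log2 fold change 0.16, SE 0.15, limma adjusted p = 0.609).

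**Figure D2:**
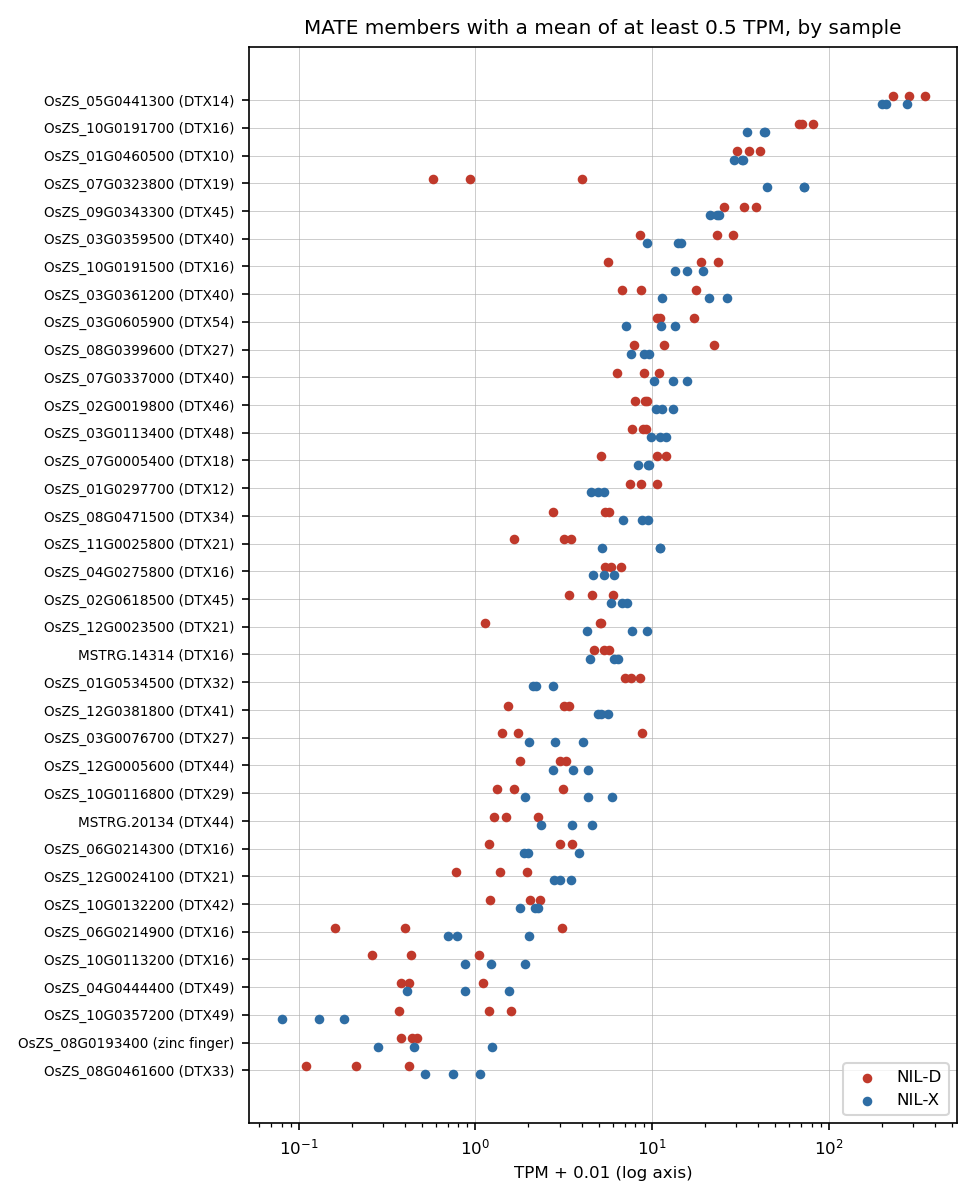
TPM + 0.01 on a log axis for each of the 36 members with a mean of at least 0.5 TPM, ordered by mean, with 1 point per sample (red for NIL-D, blue for NIL-X) and the number of the Arabidopsis DETOXIFICATION hit. OsZS_07G0323800 has its NIL-D points between 0.57 and 3.99 TPM and its NIL-X points between 44.8 and 72.49 TPM, the widest gap of any row.

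OsZS_07G0323800 was the member known in advance to differ. Its Swiss-Prot hit is DTX19, which is the Arabidopsis protein ALF5, named for the lateral root defect of its mutant and known to protect roots against inhibitory compounds in the medium. The gene is 2533 bp long and matches LOC4343318 on chromosome 7 of japonica rice. It had 0.57, 0.92 and 3.99 TPM in NIL-D and 72.13, 44.8 and 72.49 TPM in NIL-X. NIL-D was low in all samples, with its highest value in replicate 3, the sample that stood apart, and NIL-X was high in all samples. The NIL-X mean was 34.6 times the NIL-D mean, and the lowest NIL-X value was 11.2 times the highest NIL-D value. In the level order within a sample, the gene stood at place 2 of the family in each NIL-X sample and at places 31, 32 and 19 in NIL-D. The log2 fold change was -4.67 (SE 0.45), and it stayed between -5.45 and -4.34 in all alternative fits, which include leaving out each sample.

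The gene name places OsZS_07G0323800 on chromosome 7, which also holds GE. Between OsZS_07G0323800 and the gene numbered as GE lie 359 tested genes. The latter is annotated as a sulfotransferase, so this count is not shown to be the distance to GE. Both other members on this chromosome, OsZS_07G0005400 and OsZS_07G0337000, were expressed, with means of 9.22 and 10.9 TPM, and their lines overlapped. No other member has a gene number within 10 of that of OsZS_07G0323800. Among the 5 tested genes on each side, 1 had all NIL-D values above those of NIL-X (4.53% of all tested genes) and 2 the reverse (19.7%), so 7 of 10 overlapped. The nearest tested gene below it in number, OsZS_07G0323600, with a protein hit in the E3 ubiquitin ligase FLY2, had 22.74, 22.57 and 32.91 TPM in NIL-D and 28.73, 24.43 and 29.31 TPM in NIL-X, with overlap. The nearest above it, OsZS_07G0324800, a glucosyltransferase hit, did not overlap, with 0.03, 0.44 and 0.1 TPM in NIL-D and 0.87, 1.08 and 0.73 TPM in NIL-X (log2 fold change -0.68, SE 0.22, limma adjusted p = 0.236). One neighbor of the 10 was called a DEG (0.642% of all tested genes), OsZS_07G0321700, a 216 bp gene for a hypothetical protein that was listed at 0 in NIL-D and had 6.13, 10.35 and 4.77 TPM in NIL-X (limma adjusted p = 0.00925).

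The other 35 tested members differed far less between the lines, and 1 of them was called. Of all 21500 tested genes, 138 were called (0.642%), 57 higher (0.265%) and 81 lower (0.377%) in NIL-D, a split that became 75 higher and 61 lower under median-ratio scaling and 72 and 54 under quantile normalization. At an unadjusted p-value below 0.05 stood 11 of the 35 members and 15.6% of all tested genes. The log2 fold changes of the 35 members ran from -1.4 to 1.38, with a median of -0.17 against -0.15 over all tested genes. The sign was negative in 23 members (65.7%) and positive in 12, against 69.9% negative over all tested genes. Of the 35, 6 changed sign with the scaling, and 20 were negative under median-ratio scaling and 17 under quantile normalization, which moved the median of all genes to 0.00 and -0.01.

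**Figure D3:**
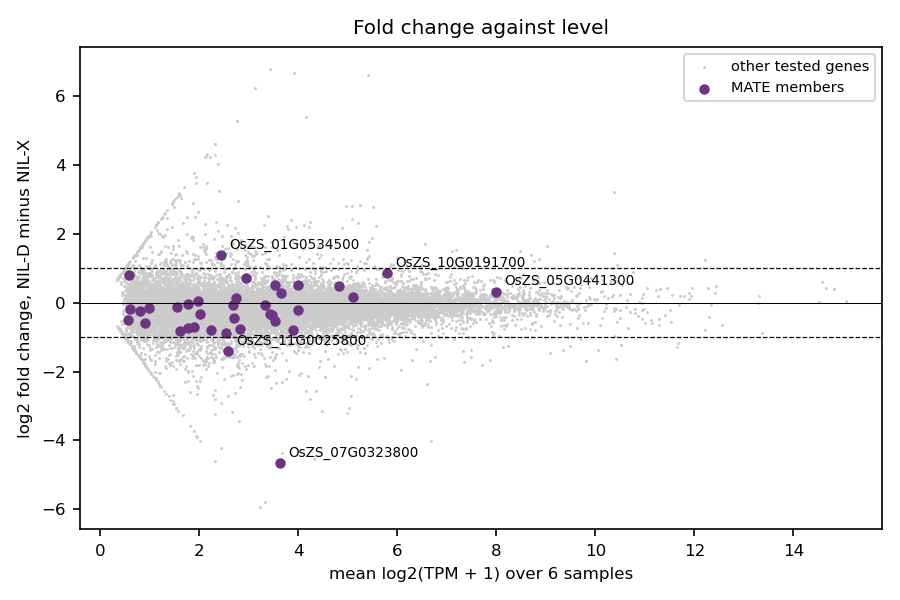
Log2 fold change (NIL-D minus NIL-X) against mean log2(TPM + 1) over the 6 samples for the 21500 tested genes (gray) and the 36 tested MATE members (purple), with dashed lines at 1 and -1. OsZS_07G0323800 lies at -4.67, and the other members lie between -1.4 and 1.38.

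The called member was OsZS_01G0534500, a 1569 bp gene with its Swiss-Prot hit in DTX32. It had 6.99, 7.62 and 8.51 TPM in NIL-D and 2.2, 2.76 and 2.1 TPM in NIL-X. All NIL-D values were at least 6.99 TPM and no NIL-X value exceeded 2.76 TPM, and NIL-D replicate 3 lay with the other NIL-D samples. The mean was 7.71 ± 0.764 TPM (NIL-D) and 2.35 ± 0.356 TPM (NIL-X, each SD with n = 3), a 3.28-fold difference of means. The log2 fold change was 1.38, with an SE of 0.17 and a limma adjusted p of 0.0255. The size was stable, at 1.31 to 1.68 in all alternative fits, but the call was not. The adjusted p-value ran from 0.0182 to 0.159 and passed the threshold, among the omissions of 1 sample, only without NIL-D replicate 3, and it was 0.0748 with a minimum mean of 5 TPM and 0.0683 with no minimum.

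In 13 of the 35 members (37.1%), the 3 values of one line lay above the 3 values of the other, against 24.3% of all tested genes. NIL-D was higher in 5 members (background 4.53%) and NIL-X in 8 (background 19.7%). Under both other scalings the count was again 13, of which 7 were higher in NIL-D and 6 in NIL-X, and the backgrounds were 10.8% and 9.82% (median-ratio) and 10.1% and 10.1% (quantile). Without NIL-D replicate 3 the count was 19 of 35, and the background 46.6%. NIL-D replicate 3 was the lowest NIL-D sample in 23 of the 35 members (65.7%) and in 53.4% of all tested genes.

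Of the members that were higher in all NIL-D samples, OsZS_10G0191700 had the highest level. It is a DTX16 hit on chromosome 10, 2057 bp long. It had 70.85, 68.33 and 81.75 TPM in NIL-D and 34.4, 43.15 and 43.58 TPM in NIL-X. NIL-D thus lay at 68.33 TPM and above and NIL-X at 43.58 TPM and below, a 1.82-fold difference of means. The log2 fold change of 0.85 (SE 0.14) fell short of the limit of 1, and the limma adjusted p-value was 0.072. It was 0.0362 without NIL-D replicate 3, with a log2 fold change of 0.78. OsZS_01G0297700, a DTX12 hit, was another such member, at 10.62, 8.62 and 7.46 TPM in NIL-D and 5.35, 4.53 and 4.95 TPM in NIL-X (log2 fold change 0.73, SE 0.17, limma adjusted p = 0.155).

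On the NIL-X side, OsZS_11G0025800 had the largest log2 fold change after OsZS_07G0323800. This DTX21 hit on chromosome 11 had 3.16, 3.47 and 1.65 TPM in NIL-D and 11.16, 11.04 and 5.23 TPM in NIL-X. Replicate 3 was the lowest sample in both lines, and both lines still did not overlap. The NIL-X mean was 3.31 times the NIL-D mean, a difference of -1.4 on the log2 scale (SE 0.34, limma adjusted p = 0.157), and the gene was called in none of the alternative fits (limma adjusted p 0.0947 to 0.468). OsZS_08G0471500, a DTX34 hit, had 5.67, 5.42 and 2.75 TPM in NIL-D and 8.74, 9.46 and 6.81 TPM in NIL-X (log2 fold change -0.77, SE 0.27, limma adjusted p = 0.263). OsZS_08G0461600, a hit of the Arabidopsis vacuolar chloride channel DTX33, lay near the minimum, with 0.2, 0.41 and 0.1 TPM in NIL-D and 1.06, 0.51 and 0.74 TPM in NIL-X (limma adjusted p = 0.322). The lines did not overlap in either gene. OsZS_01G0297700 and these genes on chromosome 8 were singled out after their values had been seen.

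Neighboring copies of the family differed widely in level. With members taken as neighbors when at most 20 gene numbers apart, a distance chosen after the values had been seen, 18 members formed 5 groups, on chromosomes 3, 6, 10, 11 and 12. All members of a group shared the same Arabidopsis hit, which is DTX40 on chromosome 3, DTX16 on chromosomes 6 and 10 and DTX21 on chromosomes 11 and 12. In these groups 9 of 18 members reached the minimum for testing and 3 were listed at 0 throughout, while 27 of the 38 members outside reached it. The authors' tool, RSEM, divides reads that match several copies by estimation, so single members of a group are uncertain where their sequences are alike. OsZS_11G0025900 and OsZS_12G0023800, from different groups, have the same best protein hit in the annotation.

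**Figure D4:**
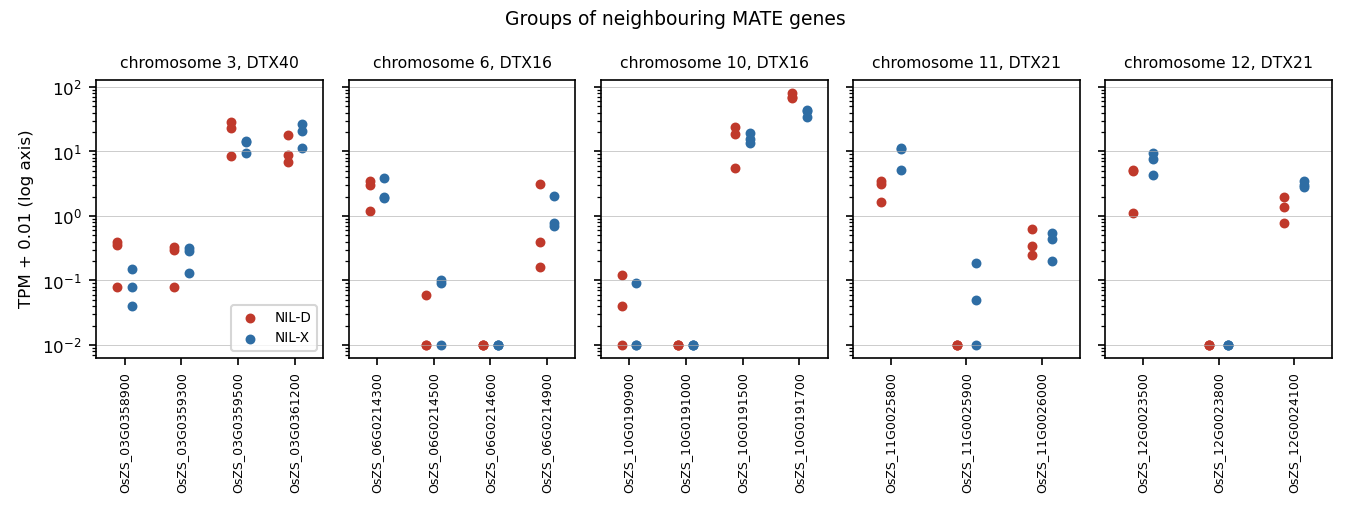
TPM + 0.01 on a log axis for the 18 members in 5 groups of neighboring genes, in gene order, with 1 point per sample (red for NIL-D, blue for NIL-X); points at 0.01 are listed at 0. On chromosome 10, OsZS_10G0191700 lies between 34.4 and 81.75 TPM while OsZS_10G0191000 is at 0 in all samples.

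In the group of 4 on chromosome 10, OsZS_10G0191700 held 77.9% of the mean level. The next gene in it, OsZS_10G0191500, had 23.55, 18.82 and 5.62 TPM in NIL-D and 19.47, 15.86 and 13.44 TPM in NIL-X, with overlapping lines (log2 fold change -0.21, SE 0.48, limma adjusted p = 0.857). Its low NIL-D value was that of replicate 3, in which OsZS_10G0191700 had its highest value. The sum of the group was 94.4, 87.18 and 87.48 TPM in NIL-D and 53.87, 59.01 and 57.1 TPM in NIL-X, so the lines did not overlap in the sum either. Median-ratio scaling could only widen this gap.

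In the group of 4 on chromosome 3, the level was shared by a pair of genes that leaned opposite ways, and neither passed the test. OsZS_03G0359500 had 28.82, 23.25 and 8.59 TPM in NIL-D and 9.38, 14.04 and 14.58 TPM in NIL-X (log2 fold change 0.50, SE 0.43, limma adjusted p = 0.591). OsZS_03G0361200 had 6.74, 8.71 and 17.78 TPM in NIL-D and 21.0, 11.41 and 26.44 TPM in NIL-X (log2 fold change -0.80, SE 0.41, limma adjusted p = 0.394). NIL-D replicate 3 lay on the NIL-X side in both genes. Their lines overlapped, and the sum of the group was 31.8 ± 4.64 TPM (NIL-D) and 32.6 ± 7.87 TPM (NIL-X, each SD with n = 3).

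The DTX21 hits, in groups of 3 on chromosomes 11 and 12, had 3 tested members, and all of them had a higher mean in NIL-X and a negative log2 fold change as deposited and under both other scalings. Beside OsZS_11G0025800, OsZS_12G0024100 had 1.37, 1.94 and 0.77 TPM in NIL-D and 3.0, 3.49 and 2.77 TPM in NIL-X, without overlap (log2 fold change -0.82, SE 0.23, limma adjusted p = 0.206). OsZS_12G0023500 had 5.04, 5.14 and 1.12 TPM in NIL-D and 7.75, 9.37 and 4.28 TPM in NIL-X, with overlap (limma adjusted p = 0.417). NIL-D replicate 3 was the lowest sample in each of these 3 genes. None of them passed the test. The group of 4 on chromosome 6 stayed low, with a sum of 3.79 ± 0.491 TPM (NIL-D) and 3.78 ± 1.88 TPM (NIL-X), carried to 67.7% by OsZS_06G0214300.

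Members with hits in the plastid-targeted proteins DTX44 to DTX47 were all expressed. This branch holds the Arabidopsis salicylic acid transporter EDS5, which is DTX47, and its homolog DTX46. All 5 rice members were tested and 0 were called (background 0.642%), with 3 of them at an unadjusted limma p-value below 0.05 (background 15.6%), and NIL-D replicate 3 was the lowest NIL-D sample in all 5 (53.4% of all tested genes). OsZS_09G0343300, a DTX45 hit and the most highly expressed of them, had 38.97, 33.16 and 25.6 TPM in NIL-D and 21.25, 23.19 and 24.09 TPM in NIL-X. Its lines did not overlap, with NIL-D higher (log2 fold change 0.48, SE 0.17, limma adjusted p = 0.277). The other DTX45 hit, OsZS_02G0618500, leaned the other way, with 4.57, 5.98 and 3.37 TPM in NIL-D and 6.78, 7.25 and 5.82 TPM in NIL-X and with overlap (log2 fold change -0.46, SE 0.21, limma adjusted p = 0.359). OsZS_02G0019800, the DTX46 hit, had 9.14, 9.33 and 7.99 TPM in NIL-D and 13.1, 11.32 and 10.5 TPM in NIL-X. NIL-X was higher in all samples (log2 fold change -0.36, SE 0.15, limma adjusted p = 0.312). Both DTX44 hits were lower in level. The new gene MSTRG.20134 had 1.49, 2.26 and 1.27 TPM in NIL-D and 3.54, 4.58 and 2.34 TPM in NIL-X, without overlap as deposited and with overlap under median-ratio scaling (log2 fold change -0.73, SE 0.26, limma adjusted p = 0.268). OsZS_12G0005600 had a mean of 2.67 ± 0.775 TPM (NIL-D) and 3.56 ± 0.805 TPM (NIL-X, each SD with n = 3), with overlap (limma adjusted p = 0.546).

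Hits in DTX42, the Arabidopsis citrate exporter that acts in aluminum tolerance, were the least expressed branch. Of the 5 members, 2 were listed at 0 in all samples, both of them the short genes named above, and OsZS_01G0666400 and OsZS_03G0103900 had means of 0.23 and 0.38 TPM. OsZS_10G0132200 alone was tested, with 1.2, 2.02 and 2.31 TPM in NIL-D and 2.18, 1.79 and 2.26 TPM in NIL-X. Its lines overlapped (log2 fold change -0.13, SE 0.22, limma adjusted p = 0.792), and the sign turned under quantile normalization and without NIL-D replicate 1.

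OsZS_12G0381800 was the single hit in DTX41 (TRANSPARENT TESTA 12). It had 3.18, 3.4 and 1.52 TPM in NIL-D and 4.97, 5.61 and 5.14 TPM in NIL-X. All NIL-X values lay above those of NIL-D, and NIL-D replicate 3 was the lowest. The means were 2.70 ± 1.03 TPM (NIL-D) and 5.24 ± 0.332 TPM (NIL-X, each SD with n = 3), a difference of -0.80 on the log2 scale (SE 0.25, limma adjusted p = 0.231), and the gene was called in none of the alternative fits.

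The branch of DTX48 to DTX56, which in Arabidopsis includes the abscisic acid exporter DTX50 and the growth regulator ADP1 (DTX51), had 8 members, of which 4 were tested and 0 called. The DTX51 hit, OsZS_06G0312600, had a mean of 0.09 TPM, the DTX55 hit was listed at 0 throughout, and no member had its hit in DTX50. OsZS_03G0605900, a DTX54 hit, had 10.66, 17.21 and 11.14 TPM in NIL-D and 11.29, 13.55 and 7.12 TPM in NIL-X, with overlap (limma adjusted p = 0.649). OsZS_03G0113400, a DTX48 hit, had 7.71, 8.92 and 9.25 TPM in NIL-D and 11.95, 11.1 and 9.91 TPM in NIL-X. Its lines did not overlap, with NIL-X higher, but did under median-ratio scaling (log2 fold change -0.32, SE 0.15, limma adjusted p = 0.353).

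Both tested DTX49 hits were near the minimum. OsZS_10G0357200 had 1.58, 1.19 and 0.36 TPM in NIL-D and 0.12, 0.07 and 0.17 TPM in NIL-X, without overlap. The log2 fold change of 0.82 (limma adjusted p = 0.257, SE 0.28) is held down by the pseudocount at such levels, and with a pseudocount of 0.1 it was 2.21. Without NIL-D replicate 3, its lowest NIL-D sample, the gene was called, with a log2 fold change of 1.09 (limma adjusted p = 0.0467). OsZS_04G0444400 had a mean of 0.623 ± 0.405 TPM (NIL-D) and 0.937 ± 0.573 TPM (NIL-X, each SD with n = 3), with overlap (limma adjusted p = 0.721).

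Other transporters that export similar compounds, and the pumps that build the proton gradient on which MATE antiporters run, were read in the same test. Of the 133 tested genes in these lists, limma called 0, and 25 had an unadjusted p-value below 0.05, which 15.6% of all tested genes had. ABC transporters, which export metabolites at the cost of ATP and were listed here by their ATP-binding domain, had 94 tested genes with a median log2 fold change of -0.23, against -0.15 over all tested genes. In 26 of them all NIL-X values lay above those of NIL-D (background 19.7%) and in 0 the reverse (background 4.53%). Under median-ratio scaling these counts were 18 (background 9.82%) and 6 (background 10.8%). The summed level of the list was 1636 to 1749 TPM in NIL-D and 1900 to 1984 TPM in NIL-X, without overlap. Aluminum-activated malate transporters had 2 tested genes and summed to 19.6, 17.5 and 25.8 TPM in NIL-D and 44.7, 28.4 and 46.0 TPM in NIL-X, also without overlap. Under median-ratio scaling both sums overlapped between the lines.

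Among the pumps, the vacuolar H+-pyrophosphatases summed to 829.0, 832.8 and 928.5 TPM in NIL-D and 588.4, 572.9 and 768.3 TPM in NIL-X. This sum was higher in all NIL-D samples as deposited, a gap that median-ratio scaling could only widen. Their 7 tested genes had a median log2 fold change of 0.04. All NIL-D values were higher in 2 of them (background 4.53%) and all NIL-X values in 1 (background 19.7%). An unadjusted limma p below 0.05 was found in 1. The 24 tested subunits of the V-type proton ATPase had a median of 0.05 and the 6 tested plasma membrane ATPases one of -0.09. All NIL-D values were higher in 1 gene of each list, and the reverse held in 0 V-type subunits and 1 plasma membrane ATPase. The summed levels of both lists overlapped between the lines. Under median-ratio scaling they were higher in all NIL-D samples. By its factors, a list with equal TPM in all samples would also come out higher in NIL-D, so no rise is read from this. Without NIL-D replicate 3, 611 of 21546 tested genes were called, 239 higher and 372 lower in NIL-D. Among them were 5 genes of the lists, all lower in the remaining NIL-D samples. They were the ABC transporter hits OsZS_01G0239800, OsZS_01G0394800 and OsZS_01G0395400, the malate transporter hit OsZS_06G0147100, and OsZS_11G0354100. The last is counted in the ABC list by its domain, although its Swiss-Prot hit is a ROOT HAIR DEFECTIVE 3 homolog. The omitted sample lay above all NIL-X values in OsZS_11G0354100 (142.29 TPM) and OsZS_01G0239800 (53.98 TPM). It lay below all of them in OsZS_01G0394800 and OsZS_01G0395400, and within their range in OsZS_06G0147100.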

How the data were processed

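Embryo RNA of NIL-D and NIL-X was sequenced in 3 samples per line, 1 copy from each field plot by the paper's methods. These state that the authors cleaned reads with SeqPrep and Sickle, used Cufflinks for assembly and TopHat for mapping to ZS97RS3, and estimated expression with RSEM. The submitters' processing notes instead name Bowtie 0.12.2 and the mouse build mm8. The deposited values are TPM, given to 2 decimals, whereas the methods speak of FPKM. The table also holds 2 columns of the authors' mean TPM, not used here. TPM hold no counts, so no count test was run and no counting interval computed.

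Lines were compared with limma 3.58.1 (R 4.3.3, lmFit, eBayes with trend), using log2(TPM + 1) of every gene that had a mean of at least 0.5 TPM. Benjamini-Hochberg adjustment was over all of these genes. The fit was checked on simulated data with independent samples and no outlying one, so the check does not cover a sample like NIL-D replicate 3. Other steps used Python 3.11.15 and pandas 2.3.3. Alternatives were a pseudocount of 0.1, no minimum, a mean of at least 5 TPM, median-ratio and quantile scaling, no trend, a replicate block, calls by adjusted p alone, and leaving out each sample. DTX numbers and subgroups follow the Swiss-Prot hit, and the name of the best protein hit can carry another number. RefSeq genes of a japonica assembly gave names only.

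Members named were OsZS_07G0323800, DEGs, members without overlap whose log2 fold change reached 1 in size, the 6 with the highest mean, and tested members of the DTX41, DTX42 to DTX43, DTX44 to DTX47 and DTX48 to DTX56 subgroups. Others were named after their values had been seen. Members and lists were chosen with earlier results of these data known.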

Additional observations from a re-analysis of the deposited data

How the results depend on the processing

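Apart from OsZS_07G0323800, 1 MATE member was called. The count was 0 with a mean of at least 5 TPM, with no minimum TPM and with the replicate block, and 0 to 2 when 1 sample was left out, 2 only without NIL-D replicate 3. It stayed at 1 with the other pseudocount, both scalings, no trend and the adjusted p alone. Among the companion transporters it was 0, and 0 to 5 when 1 sample was left out. Over all genes, 138 DEGs became 57 with a mean of at least 5 TPM, 43 with the block, 611 without NIL-D replicate 3 and 37 to 66 without each of the other samples. The count of members without overlap was 13 as deposited, 13 under each scaling and 19 without NIL-D replicate 3, alternatives chosen after seeing the data. For the 18 members named by rule, and not for those named after their values had been seen, 226 alternative fold changes were compared. Of these, 215 kept their direction and their side of the threshold. They include 13 of OsZS_07G0323800, which was known in advance to differ and is given without a test. The 11 that did not were 8 lost calls of OsZS_01G0534500, 1 gained call of OsZS_10G0357200, and 2 turns of OsZS_10G0132200. That gene turned to 0.07 under quantile normalization and to 0.04 without NIL-D replicate 1 (-0.25 to 0.04 over the omissions of 1 sample). Members with a mean below a fit's minimum have no value in it. The cause was not tested.

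Deviations from the line means correlated between samples of the same replicate number with r of 0.016, 0.202 and 0.199 for numbers 1 to 3, and 4 of 6 samples correlated best with their own number. The labels do not tie the numbers to field plots, and these values do not settle whether the numbers pair the samples. The main fit left the samples unpaired. The block served as an alternative fit and is part of the ranges over all alternative fits given above. TPM keep no depth, so a TPM of 0 sets no upper limit.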
